A study of Homo sapiens with 10 samples.

Results

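The genes described here encode the 8 subunits of the cytosolic chaperonin CCT (*TCP1*, *CCT2*, *CCT3*, *CCT4*, *CCT5*, *CCT6A*, *CCT7* and *CCT8*) and the mitochondrial chaperonin HSP60 (*HSPD1*) with its lid HSP10 (*HSPE1*). They were chosen by symbol, with no measured value in the rule, and are 10 of the 59386 genes listed in each count table. Earlier results of these data were known when they were chosen. RNA was sequenced from VCaP cells, an established human prostate cancer line that carries the TMPRSS2-ERG fusion and expresses the androgen receptor, 72 h after transfection. SMARCA4 (BRG1) is an ATPase of the SWI/SNF chromatin remodelers, and SMARCA1 (SNF2L) is an ATPase of the ISWI remodelers. Cells received 30 pmol of siRNA with Lipofectamine RNAiMAX: siRNA A or siRNA B against *SMARCA4*, or siRNA A or siRNA C against *SMARCA1*, with untargeted cells labelled only as control. Each of the 5 conditions had 2 libraries, 10 in all. What the control cells were transfected with is not given in the sources used here. Nor is it stated that the 2 libraries of a condition came from separate cultures, so the p-values measure only the spread between these libraries, which may be technical.

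CCT, also called TRiC, is a double ring in which each ring holds one copy of every subunit. Unfolded actin, tubulin and a range of WD40-repeat proteins fold inside its ATP-driven chamber, many of them delivered by the co-chaperone prefoldin. HSP60 forms a related but simpler barrel in the mitochondrial matrix, closed by HSP10, and folds proteins after their import. Proliferating and cancer cells are known for high levels of both chaperonins.

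Total counts lay at 23898545 and 26552898 in the controls, from 27752769 to 32570252 in *SMARCA4* knockdown, and from 24396501 to 34667965 in *SMARCA1* knockdown. Each targeted gene was lower under its own siRNAs. *SMARCA4* was at 242 and 268 CPM in the controls (CPM, counts scaled to library size with TMM normalization) and between 13.3 and 25.2 CPM under its siRNAs, and *SMARCA1* was at 32.3 and 31.5 CPM in the controls and between 1.75 and 3.40 CPM under its own. *SMARCA1* was also higher in *SMARCA4* knockdown, at 57.4 to 83.8 CPM (log2 fold change 1.07, SE 0.18, adjusted p = 0.0010), while *SMARCA4* was at 228 to 249.7 CPM in *SMARCA1* knockdown and was not called (adjusted p = 0.50). All 10 markers of VCaP cells had at least 10 counts in every library, whereas *PTPRC*, *CD68*, *KRT5* and *TP63*, markers of leukocytes, macrophages and basal epithelium, had between 0 and 3 counts. Not all markers of other cell types were that low. *SYP* had 1021 to 2008 counts, *CHGA* 315 to 1457, *COL1A1* 99 to 581 and *VWF* 42 to 82. *COL1A2* had 0 to 92 counts and *PECAM1* 1 to 13. The 10 markers of other cell types together summed to 62.5 and 72.1 CPM (without TMM) in the controls, 74.3 to 109 in *SMARCA4* knockdown and 84.1 to 117 in *SMARCA1* knockdown. The 10 interferon response genes summed to 143 and 153 CPM (without TMM) in the controls, against 11766 to 30721 in *SMARCA4* knockdown and 17535 to 31184 in *SMARCA1* knockdown. Their part in the changes of the chaperonin genes was not tested.

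*HSPD1* and *HSPE1* lie head to head on chromosome 2 and are transcribed in opposite directions. In the count tables (hg38) the exons of *HSPD1* span chr2:197486584-197516737 on the minus strand and those of *HSPE1* span chr2:197500140-197503449 on the plus strand. The RefSeq starts of the pair (GRCh38.p14) are 105 bases apart. The windows from 250 bases before to 50 bases after these starts share 204 bases, chr2:197500225-197500428, shown here on the strand of *HSPE1* because it is the sequence from which both genes start. The capitals mark an E-box, CACGTG, the palindrome bound by MYC with MAX and by related factors, which begins 22 bases before the start of *HSPE1* and, read in the direction of *HSPD1*, 88 bases before its start.
HSPD1/HSPE1 shared promoter stretch: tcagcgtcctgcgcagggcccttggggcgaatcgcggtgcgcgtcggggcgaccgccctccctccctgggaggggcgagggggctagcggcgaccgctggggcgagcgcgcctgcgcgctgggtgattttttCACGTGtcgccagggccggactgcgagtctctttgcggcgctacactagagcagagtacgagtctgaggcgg

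RefSeq promoter windows of this length were at hand for 9 of the 10 genes, *CCT6A* being the exception, in 12 windows. The 3 motifs searched on both strands were the E-box CACGTG, a heat shock element core GAANNTTC and the ETS core CCGGAAG. The E-box was present in 1 of the 2 windows of *HSPD1* and in the window of *HSPE1*, where it is the same site, and in none of the other 10 windows, and 7.26% of all 35116 promoter windows hold it. The heat shock core was present in 1 window each of *TCP1*, *CCT2* and *HSPD1*, against 6.77% of all windows, and the ETS core in 1 window of *CCT2*, against 10.3% of all. The 4 matches outside the shared stretch are shown with their surroundings on the strand of the gene, the motif in capitals, because they are the only other matches in the chaperonin windows. A match describes letters in a window and not a bound site.
TCP1 heat shock core, chr6:159789811-159789848, minus strand: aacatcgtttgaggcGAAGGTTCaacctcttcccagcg
CCT2 heat shock core, chr12:69585785-69585822, plus strand, in the window of its downstream start: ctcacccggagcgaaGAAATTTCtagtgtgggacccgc
HSPD1 heat shock core, chr2:197500058-197500090, minus strand, in the window of its downstream start: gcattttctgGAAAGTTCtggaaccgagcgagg
CCT2 ETS core, read on the opposite strand, chr12:69585429-69585465, plus strand: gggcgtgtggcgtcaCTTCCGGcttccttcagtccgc

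**Figure D1:**
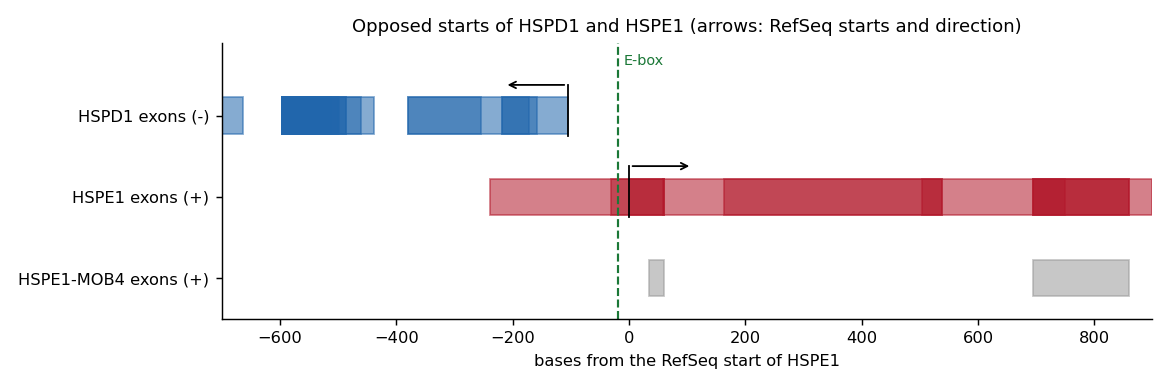
Annotated exons of HSPD1 (minus strand), HSPE1 and HSPE1-MOB4 (plus strand) in the count tables, drawn to scale in bases from the RefSeq start of HSPE1; darker shading is where annotated exons overlap each other, arrows mark the RefSeq starts and the dashed line the E-box. The starts are 105 bases apart and HSPE1-MOB4 shares 192 exon bases with HSPE1. Only the region around the starts is drawn. Many HSPD1 exons, the last HSPE1 exons and most HSPE1-MOB4 exons lie outside it.

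In *SMARCA4* knockdown all 10 chaperonin genes were lower than in control cells. The adjusted p was below 0.05 for each of them (edgeR quasi-likelihood test, Benjamini-Hochberg adjustment over the 16899 genes tested), where 22.3% of all genes tested were called lower. *HSPD1* and *HSPE1* fell most, to 44.2% and 48.7% of the control mean, and *TCP1* fell most among the CCT subunits, to 53.8%. *CCT3* and *CCT6A* fell least, to 79.2% and 79.5%. In *SMARCA1* knockdown 3 of the 10 genes were called lower, *TCP1*, *CCT4* and *CCT8*, where 23.0% of all genes tested were. None was called higher by edgeR or DESeq2, where edgeR called 23.8% of all genes tested higher. None had a positive difference with an unadjusted p below 0.05. In bulk RNA, fewer cells of a type and less RNA per cell cannot be told apart.

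The libraries of *SMARCA4* knockdown stood apart from the controls for every one of these genes. In all 10 genes each of the 4 libraries lay below both controls, as for 29.0% of all genes tested. In *SMARCA1* knockdown this held for 6 of the 10 genes, against 29.1% of all genes. Between the knockdowns, every *SMARCA4* library lay below every *SMARCA1* library for 9 of the 10 genes, against 13.8% of all genes. *CCT6A* was the exception.

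**Figure D2:**
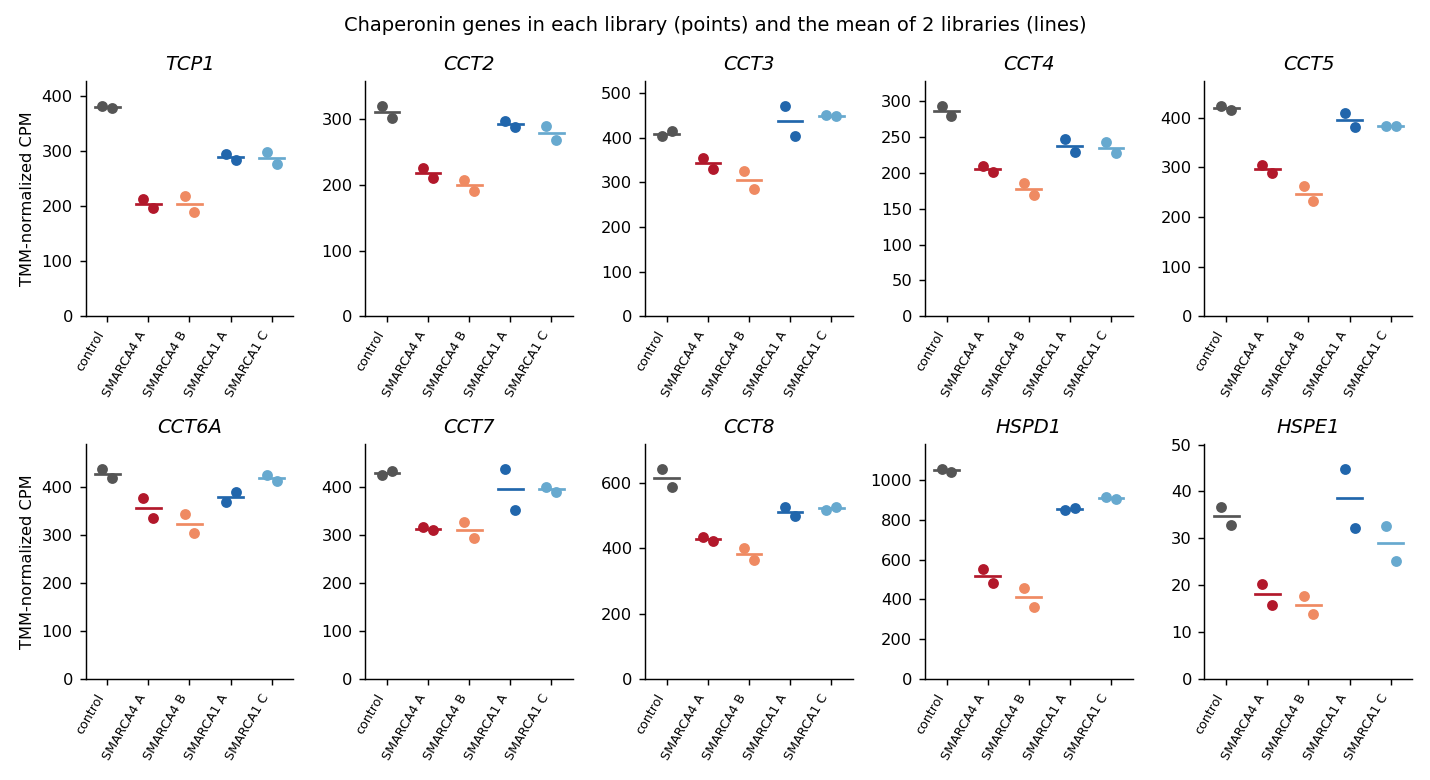
TMM-normalized CPM of the 10 chaperonin genes in the control, SMARCA4 siRNA A and B, and SMARCA1 siRNA A and C libraries; points are single libraries, lines the mean of the 2 libraries of a condition, and each vertical axis starts at 0. All 4 SMARCA4 libraries lie below both controls in each panel, HSPD1 showing the widest gap (360 to 552 CPM against 1042 and 1055 CPM).

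*HSPD1* encodes HSP60, the barrel of the mitochondrial chaperonin. It was at 1055 and 1042 CPM in the controls, 552 and 481 CPM with *SMARCA4* siRNA A, 460 and 360 CPM with *SMARCA4* siRNA B, 848 and 859 CPM with *SMARCA1* siRNA A and 916 and 903 CPM with *SMARCA1* siRNA C. The control libraries were the highest, the *SMARCA1* libraries lay in between and the *SMARCA4* libraries were the lowest, with no overlap of the 3 levels. The log2 fold change was -1.19 (SE 0.11, adjusted p = 3.1e-05) in *SMARCA4* knockdown. In *SMARCA1* knockdown it was -0.25 (SE 0.11, adjusted p = 0.088), which missed the threshold, with a 95% confidence interval from -0.50 to -0.0037. *HSPD1* passed the threshold there when each library was scaled by its total alone (adjusted p = 0.046) and when only the *SMARCA1* and control libraries were fitted (adjusted p = 0.034).

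*HSPE1* encodes HSP10, the lid that closes the HSP60 barrel. It was at 36.7 and 32.8 CPM in the controls, 20.3 and 15.8 CPM with *SMARCA4* siRNA A, 17.7 and 14.0 CPM with siRNA B, 44.8 and 32.2 CPM with *SMARCA1* siRNA A and 32.7 and 25.3 CPM with siRNA C. The *SMARCA4* libraries were again the lowest, while the *SMARCA1* libraries spread to both sides of the controls. The log2 fold change was -1.04 (SE 0.17, adjusted p = 0.00092) in *SMARCA4* knockdown, against -0.06 (SE 0.17, adjusted p = 0.81, 95% confidence interval -0.45 to 0.33) in *SMARCA1* knockdown. *HSPE1* shares 192 of its 1823 exon bases on the same strand with the readthrough gene *HSPE1-MOB4*, which had at most 1 count in any library. How reads on shared exons were counted is not given in the sources used here, and the counts of *HSPE1* may lack them, so its level relative to *HSPD1* cannot be read.

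Counts of *HSPE1* came to between 2.80% and 5.28% of those of *HSPD1*. The highest ratio was in *SMARCA1* siRNA A replicate 1, and the lowest in *SMARCA1* siRNA C replicate 2. The 2 controls were at 3.48% and 3.15% and the *SMARCA4* libraries between 3.29% and 3.88%, which overlapped. The 2 genes together took 0.109% of all counts in each control, from 0.0384% to 0.0563% in *SMARCA4* knockdown, and from 0.0894% to 0.0914% in *SMARCA1* knockdown. Exact Clopper-Pearson 95% intervals of these shares, which cover counting error only, ran from 0.0377% to 0.0391% for the lowest library and from 0.108% to 0.111% for the highest.

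*TCP1* encodes CCT-alpha, the founding subunit of the complex. It was at 381 and 377 CPM in the controls, 213 and 196 CPM with *SMARCA4* siRNA A, 218 and 189 CPM with siRNA B, 294 and 283 CPM with *SMARCA1* siRNA A and 298 and 276 CPM with siRNA C. The 3 levels did not overlap, the controls being highest and the *SMARCA4* libraries lowest. The log2 fold change was -0.89 (SE 0.09, adjusted p = 6.5e-05) in *SMARCA4* knockdown, against -0.40 (SE 0.09, adjusted p = 0.0066) in *SMARCA1* knockdown. *TCP1* was the chaperonin gene with the lowest adjusted p in *SMARCA1* knockdown, and was the one called with each *SMARCA1* siRNA alone (adjusted p = 0.021 with siRNA A and 0.014 with siRNA C). Its call was lost without control replicate 1 (adjusted p = 0.068) or control replicate 2 (adjusted p = 0.052), where the lone control is assumed to vary like the other groups.

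*CCT8*, encoding CCT-theta, was at 642 and 588 CPM in the controls, 433 and 421 CPM with *SMARCA4* siRNA A, 402 and 365 CPM with siRNA B, 525 and 499 CPM with *SMARCA1* siRNA A and 518 and 525 CPM with siRNA C. *CCT4*, encoding CCT-delta, was at 292 and 279 CPM in the controls, 209 and 201 CPM with *SMARCA4* siRNA A, 185 and 168 CPM with siRNA B, 247 and 228 CPM with *SMARCA1* siRNA A and 243 and 227 CPM with siRNA C. Both genes showed the same order as *TCP1*, with controls highest, *SMARCA4* libraries lowest and no overlap. The log2 fold changes in *SMARCA4* knockdown were -0.60 for *CCT8* (SE 0.09, adjusted p = 0.00044) and -0.59 for *CCT4* (SE 0.09, adjusted p = 0.00055). In *SMARCA1* knockdown they were -0.25 for *CCT8* (SE 0.09, adjusted p = 0.041) and -0.27 for *CCT4* (SE 0.09, adjusted p = 0.029). These 2 calls lay near the threshold.

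The count of 3 genes called in *SMARCA1* knockdown depended on single libraries. It was 0 without control replicate 1 or control replicate 2. It was 1, *TCP1*, without replicate 1 or 2 of *SMARCA4* siRNA A, of *SMARCA4* siRNA B or of *SMARCA1* siRNA C. It was 4 without *SMARCA1* siRNA A replicate 1 and 2 without *SMARCA1* siRNA A replicate 2. DESeq2 called 2 of the 10 genes, losing *CCT8* (adjusted p = 0.055).

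*CCT5*, encoding CCT-epsilon, was at 423 and 415 CPM in the controls, 305 and 288 CPM with *SMARCA4* siRNA A, 262 and 232 CPM with siRNA B, 410 and 381 CPM with *SMARCA1* siRNA A and 383 CPM in both libraries of siRNA C. *CCT2*, encoding CCT-beta, was at 320 and 302 CPM in the controls, 226 and 211 CPM with *SMARCA4* siRNA A, 207 and 192 CPM with siRNA B, 297 and 289 CPM with *SMARCA1* siRNA A and 290 and 269 CPM with siRNA C. In both genes the *SMARCA4* libraries were far below the rest and the *SMARCA1* libraries lay just below the controls without overlap. The log2 fold changes in *SMARCA4* knockdown were -0.63 for *CCT5* (SE 0.09, adjusted p = 0.00037) and -0.58 for *CCT2* (SE 0.09, adjusted p = 0.00056). In *SMARCA1* knockdown they were -0.11 for *CCT5* (95% confidence interval -0.31 to 0.10, adjusted p = 0.36) and -0.12 for *CCT2* (95% confidence interval -0.32 to 0.08, adjusted p = 0.29), and neither was called.

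*CCT7*, encoding CCT-eta, was at 424 and 433 CPM in the controls, 316 and 310 CPM with *SMARCA4* siRNA A, 327 and 293 CPM with siRNA B, 437 and 351 CPM with *SMARCA1* siRNA A and 400 and 389 CPM with siRNA C. The libraries of *SMARCA1* siRNA A fell on both sides of all other *SMARCA1* values, and replicate 1 exceeded both controls. The log2 fold change was -0.46 (SE 0.10, adjusted p = 0.0051) in *SMARCA4* knockdown, against -0.12 (95% confidence interval -0.35 to 0.11, adjusted p = 0.37) in *SMARCA1* knockdown. Without *SMARCA1* siRNA A replicate 1 the difference in *SMARCA1* knockdown was -0.20 and was called (adjusted p = 0.045).

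*CCT3* and *CCT6A* moved least in *SMARCA4* knockdown. *CCT3*, encoding CCT-gamma, was at 403 and 416 CPM in the controls, 355 and 330 CPM with *SMARCA4* siRNA A, 327 and 284 CPM with siRNA B, 471 and 405 CPM with *SMARCA1* siRNA A and 450 and 448 CPM with siRNA C. It was the chaperonin gene with a positive difference in *SMARCA1* knockdown, 0.12 (95% confidence interval -0.11 to 0.34, adjusted p = 0.37), which was not called. *CCT6A*, encoding CCT-zeta, was at 438 and 418 CPM in the controls, 378 and 336 CPM with *SMARCA4* siRNA A, 343 and 304 CPM with siRNA B, 369 and 390 CPM with *SMARCA1* siRNA A and 424 and 412 CPM with siRNA C. A library of *SMARCA4* siRNA A reached above the lowest *SMARCA1* library, so that the knockdowns overlapped. The log2 fold changes in *SMARCA4* knockdown were -0.34 for *CCT3* (SE 0.10, adjusted p = 0.019) and -0.33 for *CCT6A* (SE 0.09, adjusted p = 0.016).

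The 2 calls of *CCT3* and *CCT6A* were the weakest of the 10 in *SMARCA4* knockdown. Both were lost without *SMARCA4* siRNA A replicate 2 (adjusted p = 0.062 and 0.055), without *SMARCA4* siRNA B replicate 2 (adjusted p = 0.089 and 0.075) and when a fold change above 1.2 was required (adjusted p = 0.19 for each). Without control replicate 1 (adjusted p = 0.12 and 0.16) or control replicate 2 (adjusted p = 0.15 and 0.079) they were lost together with *CCT7* (adjusted p = 0.056 and 0.061), leaving 7 of the 10 genes called. *CCT6A* missed the threshold in *SMARCA1* knockdown, with a log2 fold change of -0.10 (95% confidence interval -0.32 to 0.11, adjusted p = 0.39).

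**Figure D3:**
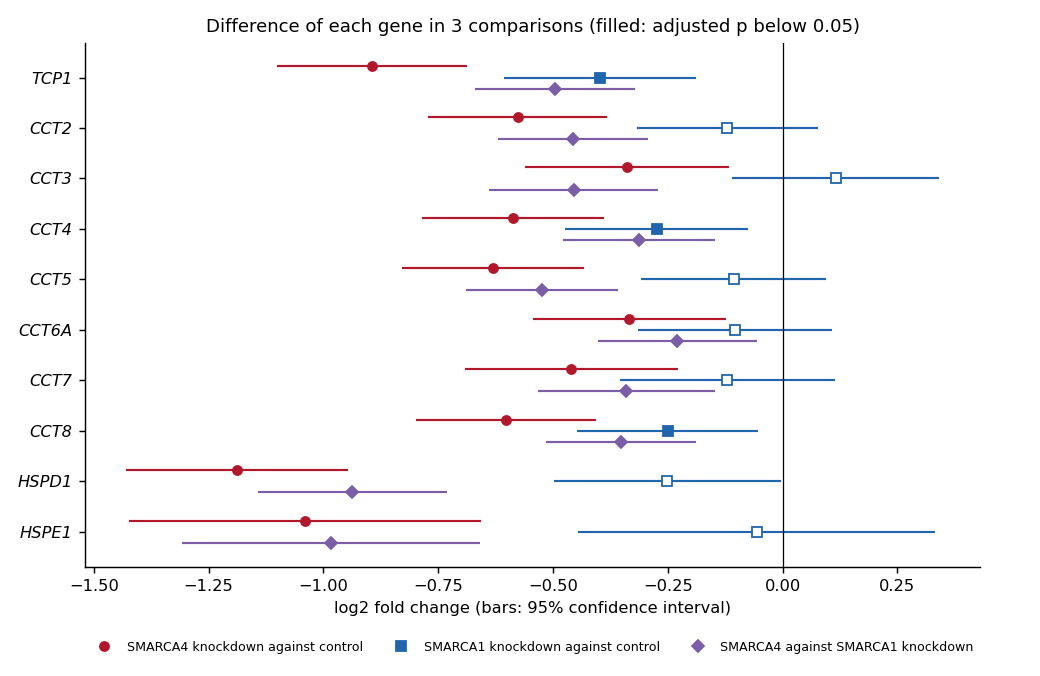
Log2 fold change of each chaperonin gene with its 95% confidence interval in SMARCA4 knockdown against control (circles), SMARCA1 knockdown against control (squares) and SMARCA4 against SMARCA1 knockdown (diamonds); filled symbols have an adjusted p below 0.05. HSPD1 (-1.19) and HSPE1 (-1.04) lie farthest below 0 in SMARCA4 knockdown, and in SMARCA1 knockdown TCP1 (-0.40), CCT4 (-0.27) and CCT8 (-0.25) are filled.

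Compared directly, the 10 genes were lower in *SMARCA4* than in *SMARCA1* knockdown, a comparison in which neither side is the control and both sides had the high interferon response. All 10 were called lower, where 19.1% of all genes tested were. *HSPE1* and *HSPD1* differed most, with log2 fold changes of -0.98 (SE 0.15, adjusted p = 0.00088) and -0.94 (SE 0.09, adjusted p = 0.00014). The CCT subunits lay between -0.52 for *CCT5* (SE 0.07, adjusted p = 0.00071) and -0.23 for *CCT6A* (SE 0.08, adjusted p = 0.043). *TCP1* differed by -0.50, *CCT2* by -0.46, *CCT3* by -0.45, *CCT8* by -0.35, *CCT7* by -0.34 and *CCT4* by -0.31, with adjusted p between 0.0012 and 0.013. The call of *CCT6A* was lost with DESeq2 (adjusted p = 0.051), and with a required fold change above 1.2 the count was 6, without *CCT4*, *CCT6A*, *CCT7* and *CCT8*. Without *SMARCA4* siRNA B replicate 2 or *SMARCA1* siRNA C replicate 1 it was 7.

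The median log2 fold change of the 8 CCT subunits was -0.58 in *SMARCA4* knockdown, where the median of all genes tested was 0.0022 and 18.2% of all genes lay below the CCT median. In *SMARCA1* knockdown the CCT median was -0.12, with the median of all genes at -0.0035 and 42.9% of all genes below the CCT median. The 8 subunits together took 0.332% and 0.327% of all counts in the controls, from 0.208% to 0.239% in *SMARCA4* knockdown, and from 0.282% to 0.312% in *SMARCA1* knockdown. These shares did not overlap between the 3 conditions.

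The 2 siRNAs against *SMARCA4* were compared with each other as a check on the knockdown. All 10 differences between siRNA A and siRNA B were positive, meaning lower levels with siRNA B, and none was called by edgeR or by DESeq2, where 6.20% of all genes tested were called by edgeR. That share is 1048 genes, which became 48 without *SMARCA4* siRNA A replicate 2 and from 99 to 2907 without any other single library. At an unadjusted p below 0.05 there were 2 chaperonin genes, *CCT5* and *HSPD1*. The largest was 0.33 for *HSPD1* (95% confidence interval 0.04 to 0.62, adjusted p = 0.15), followed by 0.26 for *CCT5* (95% confidence interval 0.03 to 0.50, adjusted p = 0.16). The smallest was 0.0074 for *TCP1* (95% confidence interval -0.24 to 0.25, adjusted p = 0.98). *SMARCA4* itself was lower with siRNA B, at 18.6 and 13.3 CPM against 25.2 and 23.2 CPM with siRNA A (log2 difference 0.60, SE 0.15, adjusted p = 0.048).

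With each *SMARCA4* siRNA alone against the controls, siRNA A gave 8 called genes, where 15.8% of all genes were called lower, and siRNA B gave 10, where 21.9% were. The 2 genes not called with siRNA A were *CCT3* (log2 fold change -0.26, adjusted p = 0.12) and *CCT6A* (log2 fold change -0.26, adjusted p = 0.093). These comparisons share their 2 control libraries. *HSPD1* was at -1.02 (SE 0.13) with siRNA A and -1.36 (SE 0.13) with siRNA B, and *TCP1* was at -0.89 (SE 0.11) and -0.90 (SE 0.11). Without control replicate 1, siRNA A gave 2 called genes, and without *SMARCA1* siRNA A replicate 1 it gave 10.

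Between the 2 siRNAs against *SMARCA1* no chaperonin gene was called by edgeR or DESeq2 either, where 0.0118% of all genes tested were called by edgeR, and none had an unadjusted p below 0.05. That share is 2 genes, which became 1927 without *SMARCA1* siRNA A replicate 2, from 0 to 325 without any other single library, and 470 with DESeq2. No chaperonin gene was called in any of these settings. The largest difference between siRNA A and siRNA C was that of *HSPE1*, 0.41 (95% confidence interval -0.04 to 0.86, adjusted p = 0.33), and for the CCT subunits it was that of *CCT6A*, -0.14 (95% confidence interval -0.39 to 0.10, adjusted p = 0.54). Against the controls, siRNA A gave 1 called gene, *TCP1*, where 16.3% of all genes were called lower, and siRNA C gave 2, *TCP1* and *CCT4*, where 21.5% were. *TCP1* was at -0.39 (SE 0.11) with siRNA A and -0.40 (SE 0.11) with siRNA C. Without control replicate 1 or 2 no chaperonin gene was called with either siRNA alone. Without *SMARCA1* siRNA A replicate 1, siRNA A gave 2, and without *SMARCA1* siRNA C replicate 1 or 2, siRNA C gave 1 and 0.

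Levels of different genes were compared per length, as CPM (without TMM) per kb of exon. In the controls *CCT8* was highest at 192 and 178, then *HSPD1* at 138.4 and 138.5, *CCT7* at 118 and 122 and *CCT6A* at 114 and 110. *CCT3* was at 104 and 109, *CCT4* at 108 and 105, *TCP1* at 78.0 and 78.3, *CCT5* at 75.1 and 74.6 and *CCT2* at 75.6 and 72.4. *HSPE1* was listed at 20.1 and 18.2, but its counts may lack reads on shared exons, so it is given no place in the order. *CCT3* and *CCT4*, and likewise *CCT5* and *CCT2*, overlapped and cannot be ordered. Exon length here is the union of all annotated exons, which is longer than the mRNA for several of these genes, so the order between genes depends on the annotation. Genes on the opposite strand also overlap some exons. *CTD-2256P15.4* covers 30.8% of the exon bases of *CCT5*, *AC107081.5* and *RP11-681L4.4* 10.2% and 6.70% of those of *CCT4*, and *ACAT2* 9.30% of those of *TCP1*. The strand setting of the counting is not given, so these counts may lack reads too.

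**Figure D4:**
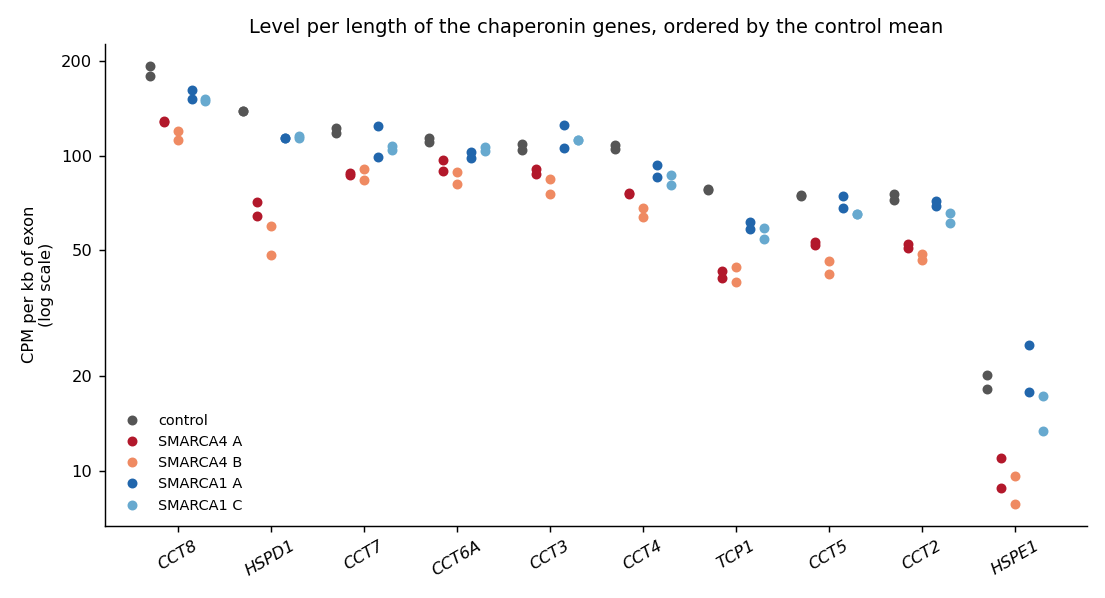
CPM (without TMM) per kb of exon (log axis) of the 10 chaperonin genes, ordered by the control mean, in the 10 libraries coloured by condition. CCT8 is highest in every library; HSPE1, whose counts may lack reads on shared exons, is drawn last and not ranked; HSPD1 stands above CCT7 in the controls and below it in all SMARCA4 libraries.

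The order shifted for the genes that fell most. In *SMARCA4* knockdown *HSPD1* was at 48.5 to 71.2 CPM per kb, below *CCT7*, *CCT6A* and *CCT3* in each of the 4 libraries, although it stood above all 3 in both controls. *TCP1* was at 39.7 to 44.4 and became the lowest CCT subunit in each of those libraries, and also in each of the 4 *SMARCA1* libraries, at 54.4 to 61.6. *TCP1* made up 9.01% and 9.22% of the summed level of the 8 subunits in the controls, from 6.69% to 7.52% in *SMARCA4* knockdown, and from 7.43% to 7.92% in *SMARCA1* knockdown. *CCT3* made up 12.05% and 12.83% in the controls, from 13.9% to 14.5% in *SMARCA4* knockdown, and from 14.3% to 15.4% in *SMARCA1* knockdown. In *SMARCA4* knockdown 4 of the 8 shares did not overlap those of the controls, *TCP1* and *CCT5* being lower and *CCT3* and *CCT6A* higher. In *SMARCA1* knockdown 4 did not overlap either, *TCP1*, *CCT4* and *CCT8* being lower and *CCT3* higher. *CCT6A* made up 13.16% and 12.98% in the controls and from 14.6% to 15.4% in *SMARCA4* knockdown, but overlapped the controls in *SMARCA1* knockdown, at 12.1% to 14.1%. The 8 shares of a library are parts of 1 sum, so a lower share of a subunit raises the others. In CPM, *CCT3* and *CCT6A* fell in *SMARCA4* knockdown. Groups of this size are often apart. In CPM every library lay below both controls for 29.0% of all genes tested in *SMARCA4* and 29.1% in *SMARCA1* knockdown. These percentages cover the lower side alone, while the subunit shares were apart on either side, so they are not compared with the counts of 4. No test was made of the subunit shares.

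The summed level of the 8 subunits was 866 and 850 CPM per kb in the controls, from 545 to 626 in *SMARCA4* knockdown, and from 732 to 809 in *SMARCA1* knockdown. On this scale, which depends on the annotated exon length, the highest subunit stood 2.46-fold to 3.14-fold above the lowest. The widest spread was in *SMARCA4* siRNA A replicate 2 and the narrowest in control replicate 2.

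Across the 10 libraries the log2 CPM values of the 28 pairs of CCT subunits had Pearson correlations between 0.77 and 0.98 (median 0.92), and *HSPD1* with *HSPE1* had 0.91. The libraries fall into 3 conditions, so these values describe mainly the differences between conditions. Among 9202 other protein-coding genes with a mean of at least 10 CPM, those with a pattern most like the mean of the CCT subunits were *CAMKK1* (0.99), *SEC11A* (0.99), *PPIF* (0.99), *PTDSS1* (0.99) and *NPM1* (0.99). *PPIF*, the mitochondrial cyclophilin D, had log2 fold changes of -1.10 (adjusted p = 2.6e-05) in *SMARCA4* knockdown, against -0.28 (adjusted p = 0.040) in *SMARCA1* knockdown. *NPM1*, the nucleolar protein nucleophosmin, was at -1.02 (adjusted p = 2.5e-05) and -0.33 (adjusted p = 0.013). Those most like the mean of *HSPD1* and *HSPE1* were *EIF3B*, *SEC11A*, *HNRNPAB*, *RSL24D1* and *PTDSS1*, all at 0.99. *EIF3B*, a subunit of a translation initiation factor, was at -0.74 (adjusted p = 0.00027) and -0.02 (adjusted p = 0.86).

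*MYC*, whose product binds the E-box, was at 318 and 329 CPM in the controls, 87.4 and 102 CPM with *SMARCA4* siRNA A, 42.2 and 25.8 CPM with siRNA B, 178 and 188 CPM with *SMARCA1* siRNA A and 164 and 171 CPM with siRNA C. Its libraries stood in the same order of conditions as those of *HSPD1*, *TCP1*, *CCT2*, *CCT4*, *CCT5* and *CCT8*, without overlap. The share of all genes with this order was not counted. Between *SMARCA4* siRNA A and siRNA B *MYC* differed by 1.48 (SE 0.19, adjusted p = 0.0055), being lower with siRNA B. Each chaperonin gene also had a lower level with siRNA B there, and none was called. Against the controls the log2 fold change of *MYC* was -2.51 (SE 0.16, adjusted p = 4.5e-06) in *SMARCA4* knockdown and -0.89 (SE 0.16, adjusted p = 0.0015) in *SMARCA1* knockdown. Its part in the changes of the chaperonin genes was not tested.

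Genes that start close to a CCT gene on the opposite strand moved in both directions. Of the 5 protein-coding genes that begin within 1000 bases of a chaperonin gene's annotated start, 3 fell and 1 rose in *SMARCA4* knockdown, where 22.3% of all genes tested fell and 22.8% rose. Starts here are the outermost exon ends in the count tables. They can differ from the RefSeq starts used above, as for *TCP1*, *CCT3*, *CCT5*, *CCT7*, *CCT8* and *HSPD1*, so the distances and the choice of neighbours depend on the annotation. *MRPL18*, a mitochondrial ribosomal protein gene 109 bases from *TCP1*, was at -0.44 (SE 0.10, adjusted p = 0.0068), *ATPSCKMT*, 32 bases from *CCT5*, at -1.45 (SE 0.18, adjusted p = 0.00015) and *PRADC1*, 181 bases from *CCT7*, at -0.88 (SE 0.14, adjusted p = 0.00084). *PSPH*, a serine synthesis enzyme gene 81 bases from *CCT6A*, was at 0.32 (SE 0.11, adjusted p = 0.035) while *CCT6A* fell. *COMMD1*, 53 bases from *CCT4*, was at 0.34 (SE 0.16, adjusted p = 0.11) and was not called.

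In *SMARCA1* knockdown, where 23.0% of all genes tested fell and 23.8% rose, *ATPSCKMT* was at -1.37 (SE 0.18, adjusted p = 0.00026) and *PRADC1* at -0.72 (SE 0.14, adjusted p = 0.0027), although their chaperonin neighbours *CCT5* and *CCT7* were not called. *PSPH* was at 0.33 (SE 0.11, adjusted p = 0.027), and *MRPL18* (0.02, adjusted p = 0.88) and *COMMD1* (0.10, adjusted p = 0.63) were not called. *ACAT2*, a sterol metabolism enzyme gene whose exons overlap those of *TCP1* by 454 bases on the opposite strand, was at -0.11 (SE 0.09, adjusted p = 0.33) in *SMARCA4* knockdown, against 0.24 (SE 0.09, adjusted p = 0.051) in *SMARCA1* knockdown. The library kit keeps strand, but the strand setting of the counting is not given in the sources used here, so reads in that overlap may belong to either gene.

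Genes named as copies of the chaperonin genes took few counts. Those named after *CCT6A* had 1.51% to 2.28% as many counts as *CCT6A* itself in a library, led by *CCT6P1*, an unprocessed pseudogene, with 106 to 220 counts, and *CCT6P3*, annotated as a lncRNA, with 53 to 81. Those of *HSPE1* had 0.565% to 1.76% as many as *HSPE1*, and those of *HSPD1* had 0.392% to 0.733% as many as *HSPD1*. For the other 7 genes the highest value was 0.205%, for *CCT8*. Reads that fit the parent gene and a copy equally well may have been left out of both.

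Of the 4 tested paralogs, related chaperonin genes outside the complex, 1 fell and 1 rose in each knockdown. Over all genes tested, 22.3% fell and 22.8% rose in *SMARCA4* knockdown, and 23.0% fell and 23.8% rose in *SMARCA1* knockdown. Beside these shares, nothing about the paralogs is read from the counts. *MKKS*, a Bardet-Biedl chaperonin-like gene, fell in *SMARCA4* knockdown (log2 fold change -0.55, SE 0.09, adjusted p = 0.00088) and *BBS12* rose (0.99, SE 0.20, adjusted p = 0.0027). In *SMARCA1* knockdown *MKKS* was at -0.26 (SE 0.09, adjusted p = 0.039, not called by DESeq2) and *CCT6B*, the testis-type homolog of *CCT6A*, rose by 0.77 (SE 0.18, adjusted p = 0.0055), from a mean of 2.46 to 4.20 CPM.

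The partners and clients of CCT and the other chaperones are given as counts of called genes, with no test of a list. Over all genes tested, 22.3% fell and 22.8% rose in *SMARCA4* knockdown, and 23.0% fell and 23.8% rose in *SMARCA1* knockdown. Of the 6 subunit genes of prefoldin, the co-chaperone that hands clients to CCT, 4 fell (3 by DESeq2) and 1 rose in *SMARCA4* knockdown, with a median log2 fold change of -0.37. *PFDN6* fell most (-0.68, SE 0.12, adjusted p = 0.0010), and *PFDN1* rose by 0.54 (SE 0.12, adjusted p = 0.0047). In *SMARCA1* knockdown 1 fell, *VBP1* (-0.47, SE 0.11, adjusted p = 0.0064), and 1 rose, *PFDN1* (0.68, SE 0.12, adjusted p = 0.0014). Of 3 tested phosducin-like cofactors, *PDCL3* fell in *SMARCA4* knockdown (-0.33, SE 0.09, adjusted p = 0.013) and *PDCL* fell in *SMARCA1* knockdown (-0.37, SE 0.09, adjusted p = 0.0093). Of 6 tubulin cofactors, which assemble the tubulin dimer after CCT, *TBCC* rose and *TBCD* fell in both knockdowns.

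The clients of CCT moved in both directions. Of 14 tested actin, tubulin and related genes, 6 fell and 2 rose in *SMARCA4* knockdown, with a median of -0.13. *TUBA1B*, an abundant alpha-tubulin, fell most (-0.72, SE 0.10, adjusted p = 0.00027, from a mean of 1487 to 903 CPM), and *ACTB*, beta-actin, rose most (0.47, SE 0.10, adjusted p = 0.0038, from 1137 to 1571 CPM). In *SMARCA1* knockdown 3 fell and 1 rose, *TUBA1A* at -0.72 (SE 0.15, adjusted p = 0.0029) and *ACTB* at 0.40 (SE 0.10, adjusted p = 0.0084). Of 9 other clients, 3 fell and 1 rose in each knockdown, counts from which, beside the shares of all genes, nothing is read about the clients. *CDC20*, an activator of the anaphase-promoting complex, fell by 1.03 (SE 0.12, adjusted p = 9.98e-05) in *SMARCA4* and by 0.89 (SE 0.12, adjusted p = 0.00029) in *SMARCA1* knockdown on the log2 scale, and *FZR1*, the other activator, rose by 0.40 (SE 0.10, adjusted p = 0.0080) and 0.46 (SE 0.10, adjusted p = 0.0037).

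Mitochondrial HSP70 and the proteases of the matrix and inner membrane work beside HSP60 on imported proteins. Of 7 tested genes of mitochondrial HSP70 and its partners, 5 fell in *SMARCA4* knockdown (4 by DESeq2), where 22.3% of all genes tested did, with a median of -0.56. None rose by edgeR or DESeq2 (none also at an unadjusted p below 0.05), where 22.8% of all genes tested rose by edgeR. *TRAP1*, the mitochondrial HSP90, fell most (-0.99, SE 0.10, adjusted p = 4.3e-05). In *SMARCA1* knockdown 23.0% of all genes fell and 23.8% rose. There 1 of the 7 fell, *GRPEL2* (-0.33, SE 0.12, adjusted p = 0.041, not called by DESeq2), and 1 rose, *DNAJA3* (0.31, SE 0.10, adjusted p = 0.033). Of 7 mitochondrial protease genes, 5 fell in *SMARCA4* knockdown with a median of -0.39, *HTRA2* falling most (-0.74, SE 0.14, adjusted p = 0.0020), and 2 fell in *SMARCA1* knockdown (1 by DESeq2), *SPG7* falling most (-0.43, SE 0.13, adjusted p = 0.017).

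Genes of the other chaperone systems are given beside the shares of all genes tested. In *SMARCA4* knockdown 22.3% of all genes fell and 22.8% rose, and in *SMARCA1* knockdown 23.0% fell and 23.8% rose. With no test of a list, nothing about these systems is read from the counts. Of 13 tested genes of cytosolic HSP70 and its partners, 3 fell and 2 rose in *SMARCA4* knockdown, while 1 fell and 5 rose in *SMARCA1* knockdown. *DNAJA1*, a J-domain co-chaperone, rose in both, by 0.83 (SE 0.11, adjusted p = 0.00026) and 0.97 (SE 0.11, adjusted p = 0.00015). *HSPA14* fell most in *SMARCA4* knockdown (-0.64, SE 0.10, adjusted p = 0.00082) and *HSPA8*, the constitutive HSP70, in *SMARCA1* knockdown (-0.26, SE 0.08, adjusted p = 0.028). Of 9 genes of HSP90 and its partners, 4 fell and 1 rose in *SMARCA4* knockdown and 1 fell and 3 rose in *SMARCA1* knockdown. *PTGES3*, the HSP90 co-chaperone p23, fell by 0.82 (SE 0.10, adjusted p = 0.00019) in *SMARCA4* knockdown, and *FKBP5*, an androgen-induced co-chaperone, rose by 1.00 (SE 0.20, adjusted p = 0.0025) and 1.03 (SE 0.20, adjusted p = 0.0022).

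The same shares of all genes apply here, 22.3% lower and 22.8% higher in *SMARCA4* knockdown, and 23.0% lower and 23.8% higher in *SMARCA1* knockdown. Of 15 ER chaperone genes, 2 fell in *SMARCA4* knockdown and 3 in *SMARCA1* knockdown, and none rose by edgeR or DESeq2, with 1 higher at an unadjusted p below 0.05 in *SMARCA4* and 0 in *SMARCA1* knockdown. *CANX*, calnexin, fell most in the former (-0.83, SE 0.12, adjusted p = 0.00046) and *DNAJC3* in the latter (-0.84, SE 0.11, adjusted p = 0.00029). None of the 3 heat shock factor genes (*HSF1*, *HSF2*, *HSF4*) was called by edgeR or DESeq2 in either knockdown or had an unadjusted p below 0.05, with medians of -0.0023 and 0.13. Of 3 small heat shock protein genes 1 was called, *CRYAB* in *SMARCA1* knockdown, at a mean of 1.38 CPM against 0.288 CPM in the controls (log2 fold change 2.11, SE 0.60, adjusted p = 0.016).

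**Figure D5:**
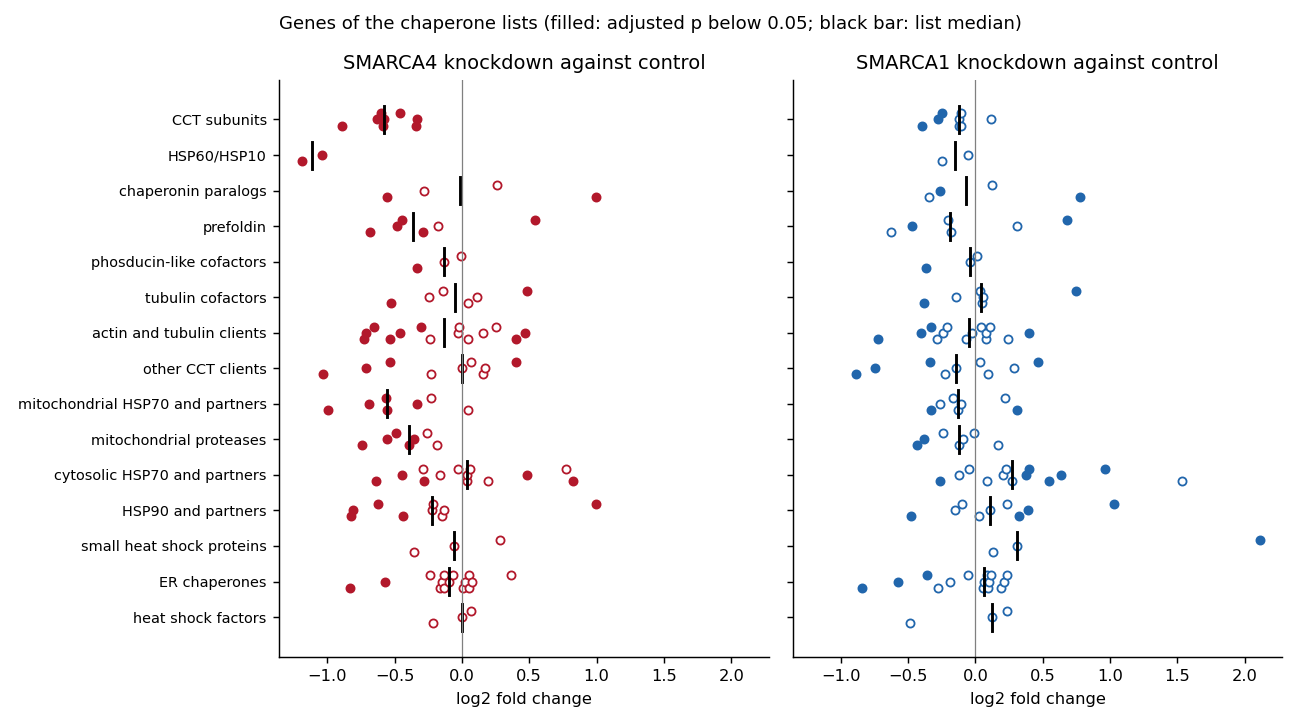
Log2 fold change of the tested genes of 15 chaperone lists in SMARCA4 (left) and SMARCA1 knockdown (right) against control; filled points have an adjusted p below 0.05, vertical offsets only separate the points, and black bars are list medians. The CCT, HSP60/HSP10, mitochondrial HSP70 and mitochondrial protease lists have medians of -0.58, -1.11, -0.56 and -0.39 on the left and between -0.15 and -0.12 on the right.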

How the data were processed

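Poly(A)-selected RNA was sequenced from VCaP cells with a kit that keeps strand. Per the labels and methods, the authors aligned reads to hg38 with HISAT2 2.1.0 (version from the submitters' processing notes) and counted them per gene with featureCounts 1.5.2. The values the authors deposited are raw counts per gene, whole numbers without normalization, with exon positions and exon length. The annotation release and the handling of shared, multi-mapped and antisense reads are not given in the sources used here.

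Groups were taken from the sample titles. Genes were kept by filterByExpr (minimum count 10, minimum total count 15), scaled by TMM and fitted by edgeR 4.0.16 in R 4.3.3 (glmQLFit, glmQLFTest), with 5 groups over the 10 libraries. For a knockdown, its 2 siRNA groups were averaged in the contrast. P-values were adjusted over the 16899 genes tested by the Benjamini-Hochberg method and called below 0.05. The standard error is the absolute log2 fold change over the square root of F. Comparisons with the control share the same 2 control libraries. Levels between genes used CPM (without TMM) per kb of exon. Alternatives were DESeq2 1.42.0, other scalings and filters, a required fold change, the replicate number as a block, fewer groups, and leaving out each library. Promoter sequences are from RefSeq (GRCh38.p14).

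Named genes are the 10 members, their neighbours and overlapping genes, *SMARCA4*, *SMARCA1*, *MYC*, the called gene with the largest rise and fall of each list in each knockdown, and the 5 genes most like each chaperonin. Other genes named beside a count were picked once values were known. The members and lists were chosen with earlier results of these data known. A gene at 0 counts may reach 0.0865 to 0.126 CPM (3 counts).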

Additional observations from a re-analysis of the deposited data

Results flagged for a closer look

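The 4 *SMARCA1* libraries were uneven for *CCT5*. *SMARCA1* siRNA A replicate 1 stood at 410 CPM and the other 3 between 381 and 383 CPM, so that the gap to its nearest neighbour was 0.938 of the whole range (Dixon's ratio, above its 95% critical value for 4 samples). The 10 genes in 2 knockdowns gave 20 such groups of 4 libraries, of which this was the 1 set apart, and chance sets apart about 1 in 20. The same library held the highest *SMARCA1* value of *CCT2*, *CCT3*, *CCT4*, *CCT7* and *HSPE1* as well. No difference between the 2 siRNAs of a target was called for any of the 10 genes by edgeR.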

How the results depend on the processing

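All 10 log2 fold changes in *SMARCA4* knockdown stayed negative under every alternative, and between 7 and 10 of them stayed called. *TCP1*, *CCT2*, *CCT4*, *CCT5*, *CCT8*, *HSPD1* and *HSPE1* kept their call under each one. With 2 libraries per condition, and 2 controls in all, leaving out a control left a lone library whose spread is assumed equal to that of the other groups. The spreads were not equal. The chi-square per gene between the 2 libraries of a condition was 5.89 for control and 3.57 for *SMARCA1* siRNA C. It was 20.5 for *SMARCA4* siRNA B, 38.8 for *SMARCA4* siRNA A and 54.5 for *SMARCA1* siRNA A. The main fit used a single estimate of spread per gene for all conditions. Where no cause is given below, the cause was not tested. The number of genes called in *SMARCA1* knockdown, 3, was 1 without the filter on low counts and 0 with a required fold change of 1.2, and ran from 0 to 4 when single libraries were left out. *SMARCA4* against *SMARCA1* knockdown gave 6 in place of 10 with that required fold change, which is stricter by construction. For single siRNAs against control, *SMARCA1* siRNA A gave 0 in place of 1 with it, and *SMARCA1* siRNA C gave 0 in place of 2 with it, 1 with DESeq2 and 1 without the filter. With single libraries left out these counts ran from 2 to 10 for *SMARCA4* siRNA A, 0 to 2 for *SMARCA1* siRNA A and 0 to 3 for *SMARCA1* siRNA C.

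In all, 48 values changed sign, none of them called in either setting, the largest being 0.17 in size. Between *SMARCA4* siRNA A and siRNA B, *TCP1* (0.0074) turned to -0.019 with a filter of 1 CPM in 2 libraries, -0.0087 with upper quartile scaling, -0.0040 with library totals and -0.0083 with only the groups compared, and *CCT7* (0.013) to -0.014, -0.0028 and -0.0027 under the first, second and last. Between *SMARCA1* siRNA A and siRNA C, *CCT7* (-0.0015) turned to 0.024 without the filter, 0.032 with the stricter filter, 0.066 with upper quartile scaling, 0.078 with library totals and 0.027 with only the groups compared. *CCT8* (-0.027) turned to 0.0042, 0.037, 0.051 and 0.000355 under the last 4 of these, and *CCT3* (-0.039) to 0.027 and 0.040 with upper quartile scaling and library totals.

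Leaving out single libraries gave ranges across 0 of -0.084 to 0.096 for *TCP1* and -0.057 to 0.077 for *CCT7* between the *SMARCA4* siRNAs. Between the *SMARCA1* siRNAs the ranges were -0.045 to 0.096 for *TCP1*, -0.13 to 0.094 for *CCT3*, -0.028 to 0.10 for *CCT4*, -0.15 to 0.17 for *CCT7* and -0.048 to 0.038 for *CCT8*. In *SMARCA1* knockdown *HSPE1* ran from -0.19 to 0.080. With *SMARCA1* siRNA A alone *CCT3* ran from -0.0081 to 0.24, *CCT5* from -0.13 to 0.0092, *CCT7* from -0.28 to 0.069 and *HSPE1* from -0.10 to 0.41, and with siRNA C *CCT6A* ran from -0.065 to 0.014.

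The labels give replicate numbers without saying what they share. Deviations from the group means of same-numbered libraries correlated between -0.10 and 0.36 over the 10 pairs of groups, above 0.1 in 3, which join *SMARCA4* siRNA A, *SMARCA4* siRNA B and *SMARCA1* siRNA A (0.125 to 0.362), so the numbers were not taken as a pairing. *TCP1*, *CCT2*, *CCT4* and *HSPE1*, 4 of the 10 genes, were lower in replicate 2 than in replicate 1 in all 5 groups. The share of all genes with this order was not counted, so nothing is read from that number. With the replicate number as a block the counts were 10, 3 and 10 in the 3 comparisons of knockdowns, and *HSPD1* was at -1.19 in *SMARCA4* knockdown. Over all genes tested, 7616 called in *SMARCA4* knockdown became 4413 and 4913 without control replicate 1 and 2, and 7911 called in *SMARCA1* knockdown became 4430 and 5094. Between the knockdowns 5982 became 3839 without *SMARCA4* siRNA B replicate 2 and 3683 without *SMARCA1* siRNA C replicate 1. The depth of 23898545 to 34667965 counts leaves little counting error for the CCT genes and *HSPD1*, while *HSPE1*, with 398 to 1239 counts, has the widest intervals.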
